A study of Mus musculus with 18 samples.

Results

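The matrix metalloproteinases and their tissue inhibitors were followed in the mouse heart after a single dose of 25 Gy. The family was taken by gene symbol as 6 metalloproteinases (Mmp2, Mmp3, Mmp9, Mmp12, Mmp14 and Mmp15) and 4 inhibitors (Timp1, Timp2, Timp3 and Timp4), which are 10 of the 30072 genes in the deposited tables. All 10 were among the 15054 genes with a CPM (counts relative to each mouse's scaled library) of 0.23 or more in 6 or more mice. RNA of 18 CD-1 mice was sequenced mouse by mouse, with 6 control (sham) mice under isoflurane anesthesia, 6 mice at 2 weeks and 6 mice at 6 weeks post-IR. The mice were littermates of both sexes, at least 8 weeks old, on a background that the labels call mixed and the paper outbred, and the sex of single mice is not in the labels. The labels give no week for the controls, and the same controls were compared with both times. The paper describes its control animals as matched for age, without a collection time for these mice. Time post-IR and age at harvest cannot be told apart between the 2-week and the 6-week mice. The labels name the septum as the tissue and gamma rays as the radiation, where the paper names ventricular tissue and X-rays to the whole heart.

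Metalloproteinases are zinc enzymes that cut collagens, elastin and other matrix proteins, and most are made as inactive precursors. TIMPs bind the active site and hold it closed, so that the matrix turns over according to the balance of both. In the heart, Mmp2 and the TIMPs are made mainly by fibroblasts and vessel cells, Mmp9 and Mmp12 mainly by leukocytes, and Timp4 is known for its high level in heart muscle.

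Mmp2 and Mmp12 were higher and Timp4 was lower at 6 weeks post-IR. Mmp2 was called at 2 weeks as well as at 6 weeks, Timp4 fell at both times, and Mmp12 rose between 2 and 6 weeks. Mmp14 was also called higher at 6 weeks, with a margin that did not survive the loss of most single mice. In the main fit of all 18 mice no member was called lower except Timp4. Mmp3, Mmp9, Mmp15, Timp1, Timp2 and Timp3 were not called in any comparison of that fit. Some other settings that kept every mouse did call Mmp15, Timp1, Timp2 and Timp3.

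Control replicate 4 stood apart, and each result was therefore also computed without it. It had the highest level among controls of Timp1 (14.3 against 0.555 to 2.87 CPM), Mmp14 (17.4 against 4.63 to 9.06 CPM) and Mmp12 (1.46 against 0 to 0.195 CPM). Its summed fibroblast markers were 4005 CPM against 1193 to 1788 CPM in the other controls, its macrophage markers 495 against 166 to 264 CPM, and its cardiomyocyte markers 32651 against 41629 to 49106 CPM. Over all genes its median correlation with the other controls, 0.9695, was close to theirs (0.9698 to 0.9716). The mouse was picked out from these same values. Where it is the highest or lowest control of a gene, leaving it out shifts the fold change by construction. All 7 cardiomyocyte markers were abundant in every mouse, and none was at 0. Totals ran from 11522987 to 15501019 estimated counts per mouse. A floor of 3 counts stood at 0.194 to 0.26 CPM before TMM scaling, and it covers counting error only.

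**Figure D1:**
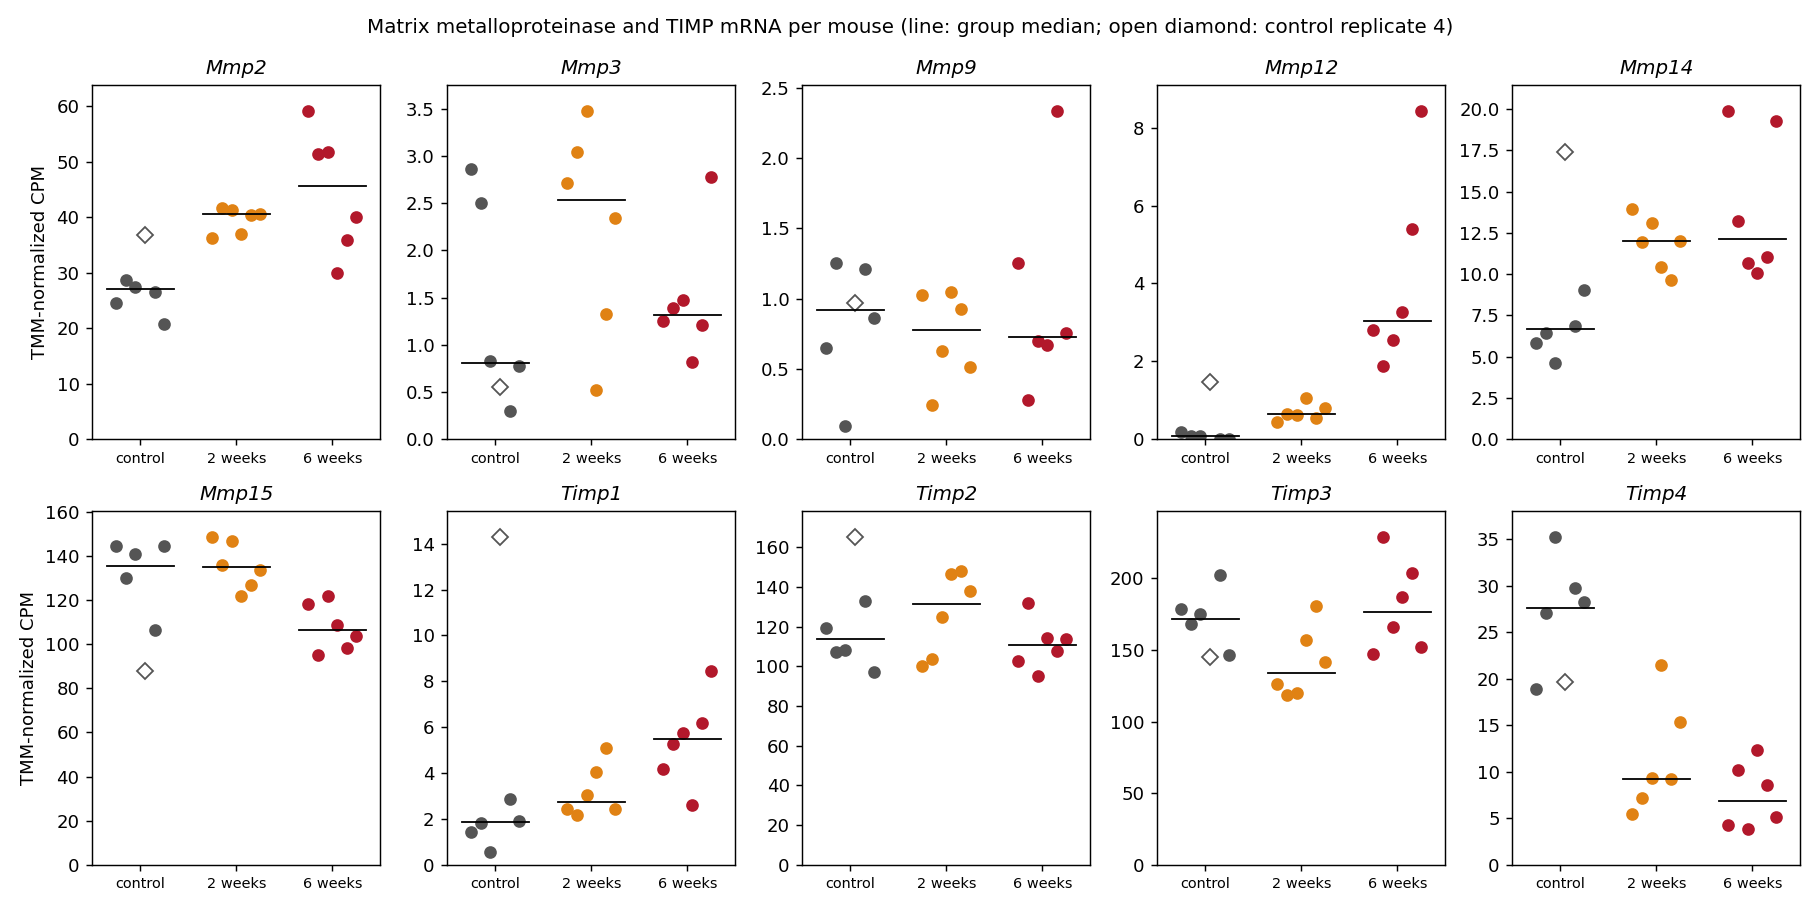
TMM-normalized CPM of each gene (vertical axes, linear from 0) in every mouse by group (horizontal axis, 6 mice a group), with a line at the group median and an open diamond for control replicate 4. At 6 weeks the Mmp12 points lie at 1.87 CPM or higher and the Timp4 points at 12.4 CPM or lower, apart from all control mice.

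The genes were compared in level by TPM, the transcript abundance scaled for length. In control mice the order of the median TPM levels was Timp3 (43.0), Timp2 (28.6), Mmp15 (23.1), Timp4 (22.3), Mmp2 (8.64), Timp1 (2.50), Mmp14 (2.38), Mmp3 (0.490), Mmp9 (0.345) and Mmp12 (0.0814). The ranges of neighbours overlapped except between Timp4 (lowest 18.2) and Mmp2 (highest 13.0). Among these members, the heart RNA thus held 3 abundant inhibitors and a single abundant proteinase, the membrane-type Mmp15. By 6 weeks Timp4 had moved to rank 6 with a median of 7.80 TPM, below Timp1 (10.9), and Mmp12 to rank 8 with 3.54 TPM.

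Mmp2 (gelatinase A, ENSMUSG00000031740, chromosome 8 of GRCm38, 92827291 to 92853420) cuts denatured collagen and basement membrane collagen. It ranged from 20.7 to 36.7 CPM in controls (median 27.0), from 36.3 to 41.6 in the 2-week mice (median 40.5) and from 29.9 to 59.1 in the 6-week mice (median 45.7). The irradiated mice overlapped the controls only through control replicate 4, the highest control, and the 2-week mice lay within the 6-week range. Mmp2 rose by 2 weeks (log2 fold change 0.52, SE 0.146, adjusted P = 0.0431) and by 6 weeks (0.70, SE 0.145, adjusted P = 0.00161), with no change called between these times (0.18, 95% interval -0.12 to 0.48). Both comparisons share the control mice. At 2 weeks the call held in 7 of 18 fits that each left out 1 mouse. It was lost without any control other than replicate 4 and without any 2-week mouse, with adjusted P of 0.0518 to 0.0999. The 6-week call held in all 18 such fits.

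Mmp9 (gelatinase B, ENSMUSG00000017737, chromosome 2, 164940780 to 164955850) is the gelatinase of neutrophils and other leukocytes. It was scarce, at 0.0925 to 1.25 CPM in controls (median 0.917), 0.241 to 1.05 at 2 weeks (median 0.777) and 0.278 to 2.33 at 6 weeks (median 0.725). The 3 groups overlapped broadly. The log2 fold change at 6 weeks was 0.21 with a 95% interval of -0.71 to 1.13 (adjusted P = 0.779), which is wide in both directions. Only 2 of 7 neutrophil markers passed the filter on low counts. At 6 weeks Csf3r was higher (log2 fold change 1.28, adjusted P = 0.0154) and S100a9 was not called (-0.91, adjusted P = 0.391). Of 4 recruited monocyte markers 3 passed the filter, and all 3 were higher at 6 weeks, among them Ccr2 (2.61, adjusted P = 0.000283). The part of these cells in the Mmp9 values was not tested.

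Mmp3 and Mmp12 lie in a cluster of 10 metalloproteinase genes on chromosome 9 (7272514 to 7699585). Mmp3 (stromelysin-1, ENSMUSG00000043613, 7445822 to 7455975) cuts proteoglycans and activates other metalloproteinases. It ranged from 0.302 to 2.86 CPM in controls (median 0.805), from 0.523 to 3.48 in the 2-week mice (median 2.53) and from 0.815 to 2.78 in the 6-week mice (median 1.32). The control mice split into 2 at 2.50 and 2.86 CPM and 4 at 0.833 CPM or below, and no change was called (log2 fold change 0.72 at 2 weeks, adjusted P = 0.403, and 0.15 at 6 weeks, adjusted P = 0.867).

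Mmp12 (macrophage elastase, ENSMUSG00000049723, 7344381 to 7369499) cuts elastin and is made chiefly by macrophages. It ranged from 0 to 1.46 CPM in controls (median 0.0879), from 0.440 to 1.05 in the 2-week mice (median 0.634) and from 1.87 to 8.43 in the 6-week mice (median 3.03). Control replicate 4 held 21 estimated counts and the other controls 0 to 3 counts each, which is at or below the floor. All 6 mice at 6 weeks were above all others, and the 2-week mice were above every control but replicate 4. Mmp12 rose from control to 6 weeks (log2 fold change 3.55, SE 0.567, adjusted P = 0.000182) and from 2 to 6 weeks (2.53, SE 0.482, adjusted P = 0.00799), and both calls held in all 18 fits that left out 1 mouse. At 2 weeks the log2 fold change was 1.02 (adjusted P = 0.493) with all mice and 2.97 (adjusted P = 0.0352) without control replicate 4. Without that mouse the 6-week value was 5.51 (adjusted P = 8.69e-07). These fitted values depend on how counts near 0 are treated, and the means without that mouse were 0.0742 ± 0.0808 CPM in 5 controls and 4.05 ± 2.45 CPM at 6 weeks (SD, n = 6).

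Macrophage markers moved with Mmp12. At 6 weeks 7 of 8 were higher, among them C1qa (log2 fold change 1.24, adjusted P = 9.92e-06) and Adgre1 (1.26, adjusted P = 0.000708), and Fcgr1 was not called (1.67, adjusted P = 0.108). Their summed level ran from 166 to 495 CPM in controls, 320 to 408 by 2 weeks and 430 to 583 by 6 weeks, and none was at 0 in every mouse. The control mouse with the most Mmp12 was also the control with the most of these markers. Their part in the result was not tested, and in whole tissue more cells of a type and more RNA per cell cannot be told apart. The genes whose log2 CPM most resembled that of Mmp12 across the 18 mice were Pou2f2 (Pearson r = 0.95), Tifab (0.95) and Fyb (0.95), where Pou2f2 is a transcription factor and Fyb an adaptor protein of leukocytes. These are the top matches among all genes tested and share the same mice and libraries.

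The promoters of Mmp3 and Mmp12 are shown because the pair sits in the same cluster and Mmp12 alone of them was called, beside those of Mmp14 and Timp4, which also changed. They are RefSeq windows on GRCm38.p6 from 250 bases before to 50 bases after a start, written on the strand of the gene. Promoters were given for 8 of the 10 members. Capitals mark matches on either strand to the AP-1 motif TGANTCA, the TATA motif TATAAA or the GC box GGGCGG.
Mmp3 (chr9:7445572-7445871, plus strand): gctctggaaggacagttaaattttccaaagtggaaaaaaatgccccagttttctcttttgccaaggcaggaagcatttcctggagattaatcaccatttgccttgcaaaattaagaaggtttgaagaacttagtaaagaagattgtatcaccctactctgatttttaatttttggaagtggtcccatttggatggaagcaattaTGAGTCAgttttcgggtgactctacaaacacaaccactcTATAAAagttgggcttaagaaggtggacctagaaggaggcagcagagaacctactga
Mmp12 (chr9:7347124-7347423, plus strand): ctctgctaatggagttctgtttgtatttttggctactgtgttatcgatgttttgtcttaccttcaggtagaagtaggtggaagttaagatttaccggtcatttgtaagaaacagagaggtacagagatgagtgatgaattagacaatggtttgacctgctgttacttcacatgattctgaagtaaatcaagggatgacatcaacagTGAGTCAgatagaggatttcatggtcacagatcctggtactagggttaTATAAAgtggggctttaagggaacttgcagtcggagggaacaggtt
Mmp14 (chr14:54431348-54431647, plus strand): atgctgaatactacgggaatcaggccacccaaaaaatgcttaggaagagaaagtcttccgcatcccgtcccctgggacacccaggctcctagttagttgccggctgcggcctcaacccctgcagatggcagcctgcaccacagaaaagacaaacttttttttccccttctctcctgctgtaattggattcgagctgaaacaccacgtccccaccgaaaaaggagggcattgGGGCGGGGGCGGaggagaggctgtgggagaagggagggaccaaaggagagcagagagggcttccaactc
Timp4 (chr6:115252156-115252455, minus strand): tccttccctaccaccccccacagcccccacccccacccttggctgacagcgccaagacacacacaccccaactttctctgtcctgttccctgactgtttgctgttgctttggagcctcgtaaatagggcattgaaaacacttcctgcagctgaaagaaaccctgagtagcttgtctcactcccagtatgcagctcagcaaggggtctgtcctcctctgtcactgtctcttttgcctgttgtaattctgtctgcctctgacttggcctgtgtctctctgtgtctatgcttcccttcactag
Mmp3 and the Mmp12 start at 7347374 each held an AP-1 match, beginning at position -46 and -44 with the start as 0, and a TATA match beginning at -7 and 4. The other Mmp12 start, at 7344397, held neither. The AP-1 letters occur in 7.81% of 32851 promoter windows of this length and the TATA letters in 13.6%. Mmp14 held 2 GC boxes, a motif of 35.7% of the windows, and Timp4 held none of the 3 motifs. Mmp15, Timp1, Timp2 and Timp3 held at least 1 GC box each. A match is a run of letters and not a measured site, and the difference in change between Mmp3 and Mmp12 was not tested.

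Of the other genes of the chromosome 9 cluster, Mmp13 rose with Mmp12 at 6 weeks. In all, 4 of the 10 genes passed the filter on low counts and 2 of these were called at 6 weeks, both higher. Over all genes tested 25.0% were called (13.5% higher), and with 4 genes the count says little beside that share. Mmp27 passed the filter and was not called (log2 fold change 0.05, adjusted P = 0.967), and Mmp1a, Mmp1b, Mmp7, Mmp8, Mmp10 and Mmp20 had at most 3 estimated counts in any mouse.

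Mmp14 and Mmp15 are membrane-type metalloproteinases, and Mmp14 activates the Mmp2 precursor at the cell surface together with Timp2. Mmp14 (ENSMUSG00000000957, chromosome 14, 54431612 to 54445364) ranged from 4.63 to 17.4 CPM in controls (median 6.65), from 9.62 to 13.9 in the 2-week mice (median 12.0) and from 10.1 to 19.9 in the 6-week mice (median 12.1). Every irradiated mouse was above every control except replicate 4. Its fold change on the log2 scale was 0.49 after 2 weeks (SE 0.263, adjusted P = 0.312) and 0.74 after 6 (SE 0.261, adjusted P = 0.0450), and 0.85 (adjusted P = 0.0210) and 1.10 (adjusted P = 0.000657) without control replicate 4. With that mouse kept, the 6-week call held in 5 of 18 fits that left out 1 mouse, namely those without control replicate 4, 2-week replicate 5 or 6-week replicate 3, 4 or 5, and in the others the adjusted P was 0.0506 to 0.117. It was also lost when only the control and 6-week mice were fitted (adjusted P = 0.0902), with no filter on low counts (0.0523) and with TPM-scaled counts (0.0594). Across the 18 mice Mmp14 was most like Adamts12 (r = 0.91), Kirrel (0.91) and Col5a3 (0.90), a fibrillar collagen chain.

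Mmp15 (ENSMUSG00000031790, chromosome 8, 95352268 to 95375080) ranged from 87.8 to 144.6 CPM in controls (median 135), from 122 to 149 in the 2-week mice (median 135) and from 95.1 to 122 in the 6-week mice (median 106). Every 6-week mouse was below every 2-week mouse, though their nearest values both round to 122 CPM. The log2 fold change from 2 to 6 weeks was -0.33 (SE 0.106, adjusted P = 0.0744), and -0.33 (adjusted P = 0.0239) when control replicate 4 was left out of the fit. This change was called in 4 of 15 alternative settings. Among them were DESeq2 (adjusted P = 0.0488), the replicate block (0.0459) and a fit of only the 2 groups compared (0.0197). Against controls the 6-week value was -0.22 (adjusted P = 0.138), and -0.31 (adjusted P = 0.0130) without that mouse. On library size alone, which moves the median of all genes by 0.24, the 6-week value was 0.05.

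Fibroblast markers are given beside Mmp2 and Mmp14, which fibroblasts make. Of 8 markers, 1 was lower at both times (Pdgfra, -0.55 and -0.88) and none was higher. Their summed level had a median of 1715 CPM in controls, 2043 by 2 weeks and 1876 by 6 weeks, and the sum of 5 myofibroblast markers, of which none was called, 155, 245 and 275 CPM. Without control replicate 4 the highest control sum of fibroblast markers was 1788 CPM, below all 2-week mice (1953 to 2236 CPM), and their part in these results was not tested. Of 6 endothelial markers, Pecam1 was higher (0.48 and 0.90, adjusted P = 0.00366 and 9.83e-07) and Tek lower (-0.40 and -0.75) at both times, and Cdh5 was higher at 6 weeks (0.53, adjusted P = 0.000197). Their summed level was 663 to 839 CPM in controls, 756 to 878 by 2 weeks and 839 to 1140 by 6 weeks, and their part in the Mmp2 result was not tested either. Mmp2 was most like Sntb1 (r = 0.92), Cercam (0.88) and Adgra2 (0.88) across the 18 mice.

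Timp4 (ENSMUSG00000030317, chromosome 6, 115241892 to 115252205) was the member with the largest fall. It ranged from 18.9 to 35.3 CPM in controls (median 27.6), from 5.50 to 21.5 in the 2-week mice (median 9.27) and from 3.87 to 12.4 in the 6-week mice (median 6.86). At 2 weeks 1 mouse, replicate 4 with 21.5 CPM, lay within the control range, and at 6 weeks none did. Timp4 fell by 2 weeks (log2 fold change -1.21, SE 0.305, adjusted P = 0.0278) and by 6 weeks (-1.84, SE 0.318, adjusted P = 0.00037), and the change between these times was not called (-0.63, 95% interval -1.31 to 0.06, adjusted P = 0.281). The 6-week call held in all 18 fits that left out 1 mouse. At 2 weeks it held in 11, and without control replicate 3, 5 or 6 or 2-week replicate 1, 2, 3 or 5 the adjusted P was 0.0533 to 0.0641.

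Cardiomyocyte markers were lower at 6 weeks as well. All 7 were called, with log2 fold changes from -0.38 (Pln) to -0.61 (Actc1), and their summed level ran from 32651 to 49106 CPM in controls, 34592 to 42758 by 2 weeks and 26894 to 35203 by 6 weeks. Timp4 is also made by fat cells, and of 4 adipocyte markers 1 was lower at 2 weeks and none at 6 weeks (sums of 321 to 424, 261 to 357 and 256 to 356 CPM). The marker called was Fabp4, which made up nearly all of these sums (255 to 421 CPM in any mouse). Adipoq, Plin1 and Cidec were at most 5.41 CPM, so the sums mainly follow 1 gene. The part of either cell type in the fall was not tested. Timp4 resembled Slc22a5 (r = 0.94), the carnitine transporter, Dgat2 (0.94), an enzyme of triglyceride synthesis, and Dguok (0.92), a mitochondrial nucleoside kinase, across the 18 mice.

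Timp1 (ENSMUSG00000001131, chromosome X, 20870166 to 20874735) is the inhibitor most readily induced by injury and inflammation. It ranged from 0.555 to 14.3 CPM in controls (median 1.87), from 2.17 to 5.11 in the 2-week mice (median 2.74) and from 2.59 to 8.43 in the 6-week mice (median 5.50). The single high control carried more Timp1 than any irradiated mouse. With it, no change was called (log2 fold change -0.29 at 2 weeks, adjusted P = 0.817, and 0.44 at 6 weeks, adjusted P = 0.578). Without it, the values were 0.89 (adjusted P = 0.149) and 1.62 (adjusted P = 0.00168). A limma voom fit that kept the mouse and weighted the samples by quality, close to the methods of the study, gave 1.25 at 6 weeks (adjusted P = 0.0449), and adjusted P over 15 alternative settings ran from 0.00446 to 0.629.

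Timp2 (ENSMUSG00000017466, chromosome 11, 118301069 to 118355740) takes part in Mmp2 activation as well as inhibition. It ranged from 97.0 to 165 CPM in controls, from 100.2 to 148 in the 2-week mice and from 95.1 to 132 in the 6-week mice, and no change was called (log2 fold change 0.06 with a 95% interval of -0.20 to 0.32 at 2 weeks and -0.13 with -0.40 to 0.13 at 6 weeks). On log2(TPM + 1), where the median of all genes was 0.29, the 6-week value was 0.41 (adjusted P = 0.0284). Timp3 (ENSMUSG00000020044, chromosome 10, 86300372 to 86349506), which is bound to the matrix and also inhibits ADAM proteases, ranged from 145 to 202 CPM in controls, from 119 to 181 in the 2-week mice and from 147 to 229 in the 6-week mice. Its log2 fold change was -0.27 at 2 weeks (adjusted P = 0.228), 0.10 at 6 weeks (adjusted P = 0.624) and 0.36 from 2 to 6 weeks (SE 0.123, adjusted P = 0.0928), with the groups overlapping in each case. Without 2-week replicate 5 the last value was 0.45 (adjusted P = 0.0430). At 6 weeks Timp3 was called in 3 of 15 alternative settings. These were library size only (0.35, adjusted P = 0.0319), log2(TPM + 1) (0.41, 0.0118) and log2(TPM + 0.1) (0.42, 0.0118), which also raise the median of all genes. From 2 to 6 weeks it was called in 2 of 15, library size only (adjusted P = 0.0294) and log2(TPM + 1) (0.0439).

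Each of 3 TIMP genes lies inside a synapsin gene on the other strand, Timp1 in Syn1, Timp3 in Syn3 and Timp4 in Syn2. Timp3 shares 1733 exonic bases with Syn3, which is 21.3% of its own, and Timp4 shares 90 with Syn2. How strand was counted is not given in the sources used here. The synapsins were at most 2.06 TPM in any mouse. In controls Syn1 was 0.181 to 0.380 TPM, beside a lowest Timp1 level of 0.780 TPM. None was called at 6 weeks, with log2 fold changes of 0.55 for Syn1 (adjusted P = 0.0848), 0.05 for Syn2 (adjusted P = 0.93) and 0.71 for Syn3 (adjusted P = 0.0614). Mmp12 shares 157 exonic bases with Mmp1b, which was at 0 in every mouse.

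**Figure D2:**
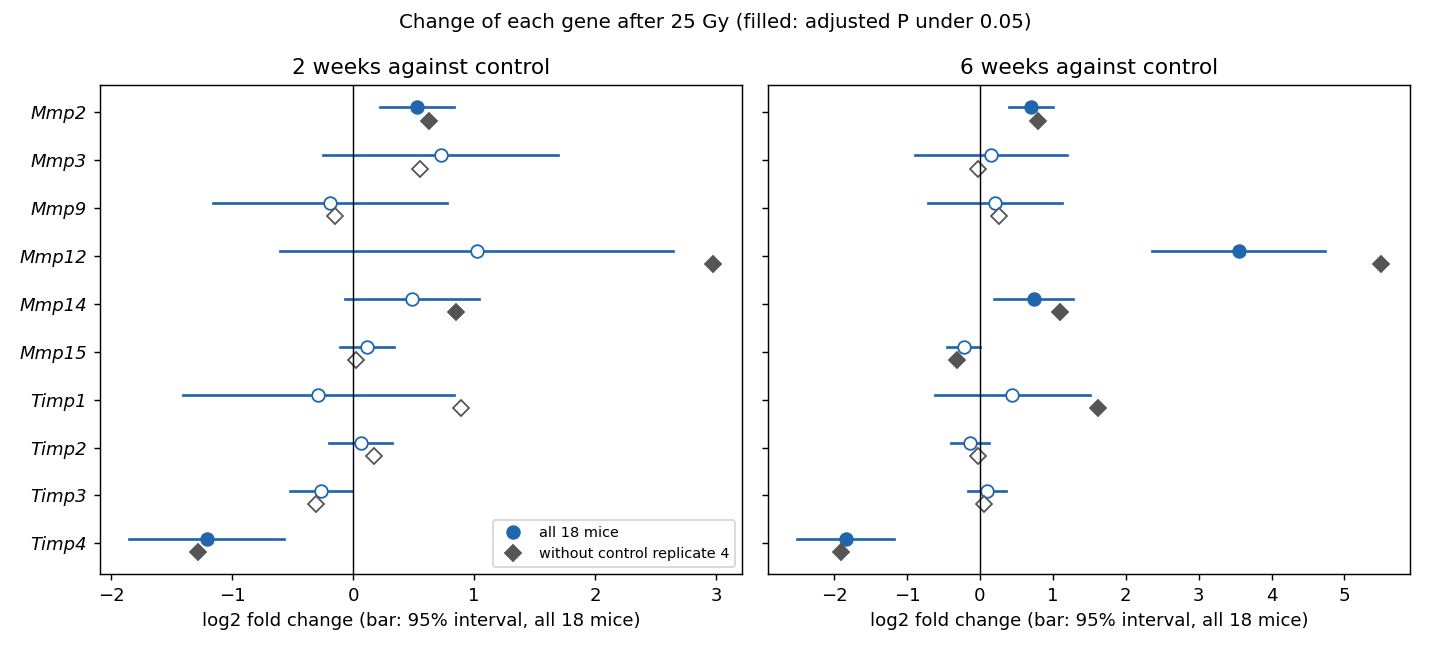
Log2 fold change of each gene against control (horizontal axes) at 2 and 6 weeks, as circles with 95% intervals for all 18 mice and as diamonds without control replicate 4, filled where the adjusted P was under 0.05. Leaving out the control mouse moves Mmp12, Mmp14 and Timp1 to the right (Timp1 at 6 weeks from 0.44 to 1.62) and Timp4 little (-1.84 and -1.91).

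Counted together, 2 of 10 members were called at 2 weeks (1 higher, 1 lower), against 5.02% of all genes tested (3.09% higher, 1.93% lower). At 6 weeks 4 of 10 were called (3 higher, 1 lower), against 25.0% of all genes (13.5% higher, 11.5% lower). Between 2 and 6 weeks 1 was called, higher, against 5.33% (3.31% higher, 2.01% lower). The groups did not overlap for no member at 2 weeks (3.24% of all genes), for Mmp12 and Timp4 at 6 weeks (9.23%) and for Mmp12 and Mmp15 between the times (3.54%). Median log2 fold changes of the members were 0.09, 0.18 and 0.21, beside medians over all genes tested of 0.00, -0.02 and 0.00. Without control replicate 4, the counts were 4 at 2 weeks (5.73% of all genes), 6 at 6 weeks (26.1%) and 2 between the times (6.60%). Mmp12 and Mmp14 joined at 2 weeks, Timp1 and Mmp15 at 6 weeks and Mmp15 between the times. For each of these genes that mouse was the highest or lowest control. With 10 members, 4 calls at 6 weeks stand little above the 25.0% over all genes.

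The makeup of each class in TPM moved with these genes, given as a description with no test. Timp4 made up a median of 23.6% of the summed TIMP TPM in controls, 10.4% at 2 weeks and 6.94% at 6 weeks, and its highest 6-week share, 12.4%, was below its lowest control share, 14.9%. The share of Mmp15 in the summed metalloproteinase TPM was 66.3%, 55.9% and 44.0%, while that of Mmp12 was 0.233%, 1.88% and 6.54%. The median TPM of Mmp15 itself was 23.1, 28.8 and 26.5, on a scale that is not normalized between mice. At 6 weeks the median change of all genes on log2(TPM + 1) was 0.29. On TMM-normalized CPM the Mmp15 medians were 135, 135 and 106, so TPM alone does not show whether Mmp15 fell. The ratio of summed metalloproteinase to summed TIMP TPM had a median of 0.368 in controls (0.277 to 0.448), 0.554 at 2 weeks (0.404 to 0.703) and 0.509 at 6 weeks (0.381 to 0.652). The ranges overlapped. Transcript levels do not measure active enzyme, since precursor activation and inhibition act on protein.

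**Figure D3:**
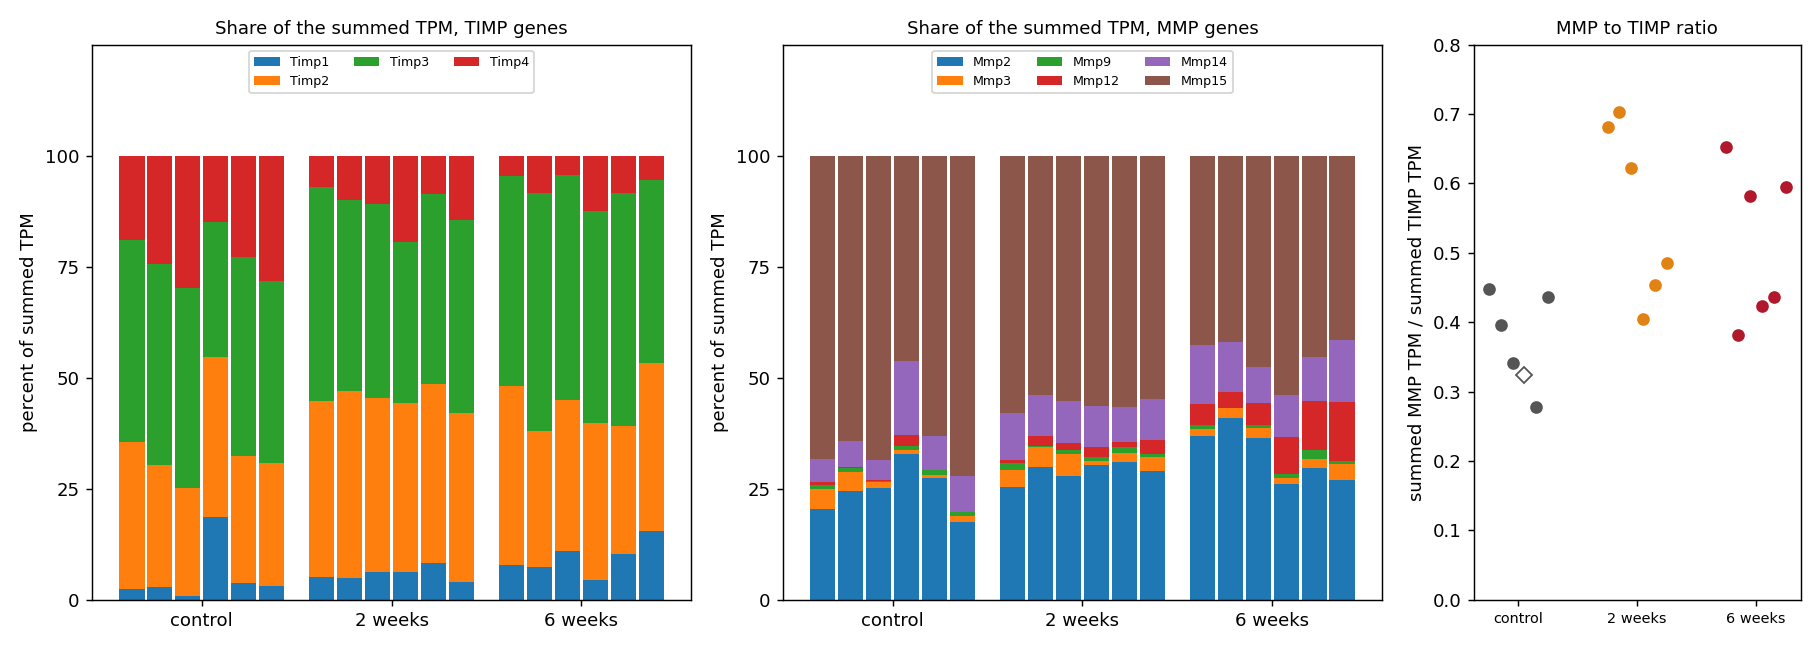
Share of each gene in the summed TPM of the 4 TIMP genes (left) and the 6 metalloproteinase genes (middle), with a bar for each mouse in the order of replicates, and the ratio of both sums per mouse (right, open diamond for control replicate 4). The Timp4 bar segment shrinks from a median of 23.6% in controls to 6.94% at 6 weeks.

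Other proteases and their regulators were counted from lists. Their counts stand beside shares over all genes tested of 3.09% higher and 1.93% lower at 2 weeks, and 13.5% higher and 11.5% lower at 6 weeks. Of 17 other MMP genes 10 were tested, none was called at 2 weeks, and at 6 weeks 2 were higher and 1 lower. Mmp25, a membrane-anchored proteinase of leukocytes, was 0 to 0.259 CPM in controls, 0.0654 to 0.321 by 2 weeks and 0.644 to 1.05 by 6 weeks, and it rose in the 6-week mice (log2 fold change 2.60, SE 0.350, adjusted P = 1.22e-05). These are 0 to 3 counts in controls, at or below the floor, and 8 to 14 counts at 6 weeks, so the size of the change is uncertain. Too few control and 2-week mice reached the filter on low counts for Mmp25 to be tested without the 6-week mice. Its adjusted P and its separation from the controls are therefore not independent of that selection. Mmp13 (collagenase 3) was 0.167 to 0.902, 0.367 to 1.03 and 1.01 to 2.89 CPM (1.91, SE 0.340, adjusted P = 0.000488). Both were higher at 6 weeks in all 6 mice than in any control. Mmp28 fell, from 4.49 to 6.25 CPM in controls to 2.18 to 4.26 CPM at 6 weeks (-0.80, adjusted P = 0.0035), a call that was lost on log2(TPM + 1) and log2(TPM + 0.1) (-0.17 and -0.26, both adjusted P = 0.320).

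The ADAM proteases, which shed proteins from the cell surface, had 1 of 8 higher at 2 weeks and 4 of 8 higher at 6 weeks, with none lower. Adam15 was 52.4 to 83.8 CPM in controls, 102 to 115 by 2 weeks and 106 to 142 by 6 weeks, and rose at both times (log2 fold changes 0.69 and 0.93, adjusted P = 0.000687 and 4.14e-06). Adam8, Adam12 and Adam10 rose at 6 weeks (1.35, 1.16 and 0.33), though the call of Adam8 was lost with TPM-scaled counts (adjusted P = 0.104) and that of Adam12 with only the 2 groups fitted (0.0524). The Adam12 call was also lost in 5 of 18 fits that left out 1 mouse (adjusted P of at most 0.0629). Adam17, a known target of Timp3, was not called (0.20 at 6 weeks, adjusted P = 0.534). Among 16 tested ADAMTS proteases, which cut proteoglycans and procollagens, 1 was higher at 2 weeks, and at 6 weeks 5 were higher and 1, Adamts3, lower (-0.62). Adamts4, an aggrecanase and versicanase, was 0.0925 to 1.60 CPM in controls, 0.458 to 1.76 by 2 weeks and 1.71 to 6.62 by 6 weeks (2.76, SE 0.483, adjusted P = 0.00041). Adamts9 rose at both times (0.64 and 0.78).

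Of 15 tested activators and regulators of MMPs, 4 were higher at 2 weeks, and 8 were higher and 2 lower at 6 weeks. Plasmin activates several metalloproteinase precursors, and its own activators Plau (7.47, 10.9 and 16.0 CPM as medians) and Plat (13.7, 18.7 and 24.5 CPM) rose at 6 weeks by 1.21 and 0.87 on the log2 scale, as did the receptor Plaur (1.57). The inhibitor Serpine2 (7.24, 12.8 and 21.9 CPM) rose by 1.44. Tfpi2, a Kunitz-type inhibitor of plasmin, was scarce (0.533, 0.873 and 1.41 CPM) and was called at 6 weeks (1.13, adjusted P = 0.0249). That call was lost without control replicate 1, 3 or 5 or 6-week replicate 5 or 6 (adjusted P of at most 0.0620) and with a replicate block (0.0560). Cd44, which anchors Mmp9 and Mmp14 at the cell surface, rose by 0.80 at 2 weeks and 1.35 at 6 weeks (adjusted P = 0.0364 and 0.000147), and the matricellular Thbs1 by 2.05 at 6 weeks. The Cd44 call at 2 weeks was lost with a replicate block (0.0506) and in 7 of 18 fits that left out 1 mouse (adjusted P of at most 0.0861). The membrane-anchored MMP inhibitor Reck was not called (-0.26, adjusted P = 0.28), nor was the precursor convertase Furin (-0.04, adjusted P = 0.692). Bsg, an inducer of metalloproteinases, and Pcsk5 were lower (-0.28 and -0.46).

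Cathepsins and other matrix proteases had no call at 2 weeks among 12 tested, and 4 higher and 2 lower at 6 weeks. Ctss, an elastin-cutting cathepsin of macrophages, was 3.24 to 17.1 CPM in controls, 12.3 to 20.3 by 2 weeks and 24.8 to 62.9 in the 6-week mice (log2 fold change 2.21, SE 0.287, adjusted P = 2.63e-05), and so followed the same order of groups as Mmp12. Ctsz and Hpse rose (0.73 and 0.98) while Htra3 fell (-1.01, adjusted P = 0.000605). The Hpse call was lost with only the 2 groups fitted (adjusted P = 0.0763) and with TPM-scaled counts (0.0604). It was also lost in 9 of 18 fits that left out 1 mouse (adjusted P of at most 0.0962). Ctsk was called at 6 weeks (1.51, adjusted P = 0.0384) but not without control replicate 4 (1.30, adjusted P = 0.0764), with only the 2 groups fitted (0.0590), with a replicate block (0.0933) or with TPM-scaled counts (0.0535). In all, 7 of 18 fits that left out 1 mouse lost the Ctsk call (adjusted P of at most 0.0894). Median log2 fold changes at 6 weeks were 0.00 for the other MMP genes, 0.28 for ADAM, 0.12 for ADAMTS, 0.58 for the regulators and 0.15 for the cathepsin list, beside -0.02 over all genes tested.

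**Figure D4:**
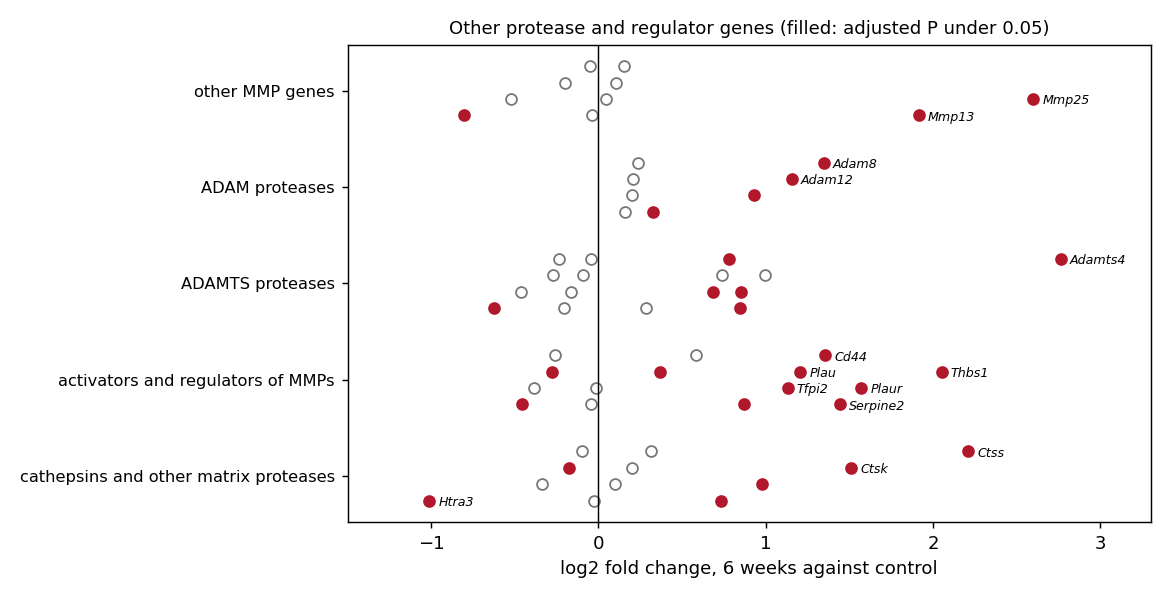
Log2 fold change at 6 weeks against control (horizontal axis) for the tested genes of 5 lists (vertical axis), filled where the adjusted P was under 0.05, with names for called genes beyond 1 in either direction and points spread vertically only for legibility. Adamts4, Mmp25, Ctss and Thbs1 lie farthest right, at 2.76, 2.60, 2.21 and 2.05.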

How the data were processed

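RNA of 18 mouse hearts was sequenced, 6 in each group, and each mouse was treated as a replicate. Per the methods of the study, the authors used STAR (GRCm38) for alignment, Salmon 1.0 for transcript quantities and tximport to sum these by gene. The deposited estimated counts are not normalized between mice, and the authors' TPM values from the same quantification are scaled for length and depth within each mouse. The values were rounded to whole counts for edgeR 4.0.16 (R 4.3.3), with a filter of 0.23 CPM or more in 6 or more mice, TMM scaling, and 1 quasi-likelihood fit of 3 groups with two-sided F tests. P values were adjusted over all 15054 genes within each comparison by the Benjamini-Hochberg method, and a gene was called at an adjusted P under 0.05. CPM values other than the filter and the floor are TMM-normalized, and likeness used log2 CPM with a prior count of 2. Intervals cover 95%, and the floor of 3 counts covers counting error only.

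The members, the lists of other genes and the marker lists were chosen with earlier results of these data known. All members are named. From each other list, up to 4 genes with the smallest adjusted P at 6 weeks were named, and called genes beyond an absolute log2 fold change of 1, up to 6 a list. Adam17, Adamts3, Bsg, Furin, Mmp27, Pcsk5 and Reck were named after their values were seen. A gene of the list of MMP activators and regulators is not reported here and was left out of the counts of that list. Loci are those of GENCODE M21 on GRCm38, and promoters those of RefSeq on GRCm38.p6. The code was tested on simulated counts. Other settings tried were the model (DESeq2 1.42.0, limma 3.58.1 voom), scaling, filters, thresholds, log2 TPM with pseudocounts of 1 and 0.1, the replicate number as a block and leaving out each mouse. TPM-scaled counts, and voom with quality weights without control replicate 4, were added after seeing the data. Mice with the same replicate number did not deviate together (correlations of -0.08 to 0.11), so the numbers were not used as pairs.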

Additional observations from a re-analysis of the deposited data

Results flagged for a closer look

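Among 99 groups of 6 mice tested for the named genes, 12 held a mouse far from the others by Dixon's test, where chance flags about 4.95 in well-behaved data. The tests share the same mice, and most genes were named for their results, so the 12 cannot be judged against that number. Control replicate 4 accounted for the high values of Mmp12 (1.46 CPM), Mmp14 (17.4 CPM), Timp1 (14.3 CPM), Adam8 (2.91 CPM), Adam12 (11.2 CPM), Adamts4 (1.60 CPM), Htra3 (157 CPM) and Hpse (3.75 CPM). The others were Mmp3 and Cd44 in 6-week replicate 6 (2.78 and 37.8 CPM), Plau in 6-week replicate 1 (23.8 CPM) and Adamts17 in control replicate 1 (3.38 CPM).

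The change from control differed between 2 and 6 weeks for 9 named genes, by edgeR's quasi-likelihood test of 6 against 2 weeks. Over all genes tested 5.33% were called. Genes outside the members were named for their results in these data, so the 9 are not a rate. The log2 difference was 2.53 for Mmp12, 1.99 for Mmp25, 1.65 for Mmp13, 0.26 for Adam10, 1.79 for Adamts4, 0.67 for Plau, 1.75 for Thbs1 and 1.26 for Ctss. For Htra3 it was -0.75. Of 18 fits that left out 1 mouse, the call was lost in 9 for Adam10, 5 for Htra3 and 3 for Adamts4.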

How the results depend on the processing

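Counts of called members depended on the setting. At 2 weeks the 2 calls became 1 with no filter, with the replicate block and with an absolute log2 fold change above 1, 0 with TPM-scaled counts and TMM, and 5 on log2(TPM + 0.1), where 20.1% of all genes were called. At 6 weeks the 4 calls became 7 on log2(TPM + 1) and on log2(TPM + 0.1), where 49.6% of all genes were called on either, and 2 with the fold-change threshold. They were 3 with no filter, the 2 groups only, the replicate block or TPM-scaled counts, 5 with weighted voom or library size only, and 6 with weighted voom without control replicate 4. Between the times the 1 call became 2 with DESeq2, library size only, only the 2 groups compared, the replicate block, log2(TPM + 1) and weighted voom without control replicate 4, and 3 at an adjusted P under 0.10. With the replicate block Mmp2 at 2 weeks and Mmp14 at 6 weeks lost their calls (adjusted P = 0.0732 and 0.0517) and Mmp15 between the times gained one (0.0459), while no other member's call changed. Leaving out 1 mouse gave 0 to 4 members at 2 weeks, 3 to 6 at 6 weeks and 1 to 2 between the times. The 4 calls at 2 weeks and 6 at 6 weeks came without control replicate 4. The 2 between the times came without that mouse and also without 2-week replicate 5.

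For the other protease and regulator genes, the 6 calls at 2 weeks became 12 with library size only (11.9% of all genes), 20 on log2(TPM + 1) and log2(TPM + 0.1) (18.7% and 20.1% of all genes), 13 with weighted voom without control replicate 4 and 1 with the fold-change threshold. That threshold left 14 of 29 at 6 weeks and 5 of 9 between the times, where log2(TPM + 1) gave 14. Leaving out 1 mouse gave 3 to 13, 23 to 31 and 5 to 11. With the replicate block the calls of Tfpi2 and Ctsk at 6 weeks (adjusted P = 0.0560 and 0.0933), Cd44 at 2 weeks (0.0506) and Adam10 between the times (0.0742) were lost.

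Some directions turned, none of them for a value called in the report, though Timp2 at 6 weeks passed the threshold upward on log2(TPM + 1) and log2(TPM + 0.1) (adjusted P = 0.0284 and 0.0280). Log2(TPM + 1), log2(TPM + 0.1) and library size raise the median of all genes at 6 weeks by 0.29, 0.37 and 0.24. In the order log2(TPM + 1) and log2(TPM + 0.1), the turned values were 0.18 and 0.52 for Mmp9 at 2 weeks, 0.17 and 0.17 for Mmp15 at 6 weeks, 0.50 and 0.71 for Timp1 at 2 weeks, 0.41 and 0.42 for Timp2 at 6 weeks and 0.048 and 0.049 between the times. They were 0.0070 and 0.034 for Mmp28 between the times and 0.30 and 0.66 for Adam12 at 2 weeks. Library size only turned Mmp15 (0.046) and Timp2 (0.12) at 6 weeks, and Adam12 (0.086) at 2 weeks. TPM-scaled counts with TMM turned Mmp9 (0.42 at 2 weeks and -0.0092 between the times), Timp2 at 6 weeks (0.0046) and Adam12 at 2 weeks (0.33). Voom without weights, with weights, and with weights but no control replicate 4 turned Timp1 (0.39, 0.52 and 0.93) and Adam12 (0.18, 0.29 and 0.56) at 2 weeks. The replicate block turned Adam12 at 2 weeks (0.059). Leaving out 1 mouse gave -0.12 to 0.60 for Mmp3 and -0.19 to 0.41 for Mmp9 at 6 weeks, and -0.49 to 0.89 for Timp1 and -0.20 to 0.60 for Adam12 at 2 weeks. The cause was not tested.

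Depth limits scarce genes such as Mmp12, Mmp25, Mmp3 and Mmp9 most, with 0 to 3 counts of Mmp12 in 5 control mice and of Mmp25 in all controls. Mice of a group are separate animals, and the labels name no batch.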
